A study of Mus musculus with 42 samples.

Results

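Cdx1, Cdx2, Gata4, Gata6, Hnf4a, Hnf4g and Evx2 encode transcription factors that mark intestinal epithelium or its position along the gut. These 7 genes were taken by symbol from the 20462 genes listed in 9 tables of RNA-Seq from mouse colon crypts and colon tumors. The tables held 42 libraries in 14 groups, of which 36 libraries were crypts and 6 were tumors. All 7 genes were listed in 7 of the tables, and Evx2 was missing from both tables that compare mutant with WT proximal colon.

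All mice were C57/BL6 and at least 8 weeks old, and came from 1 of 2 colonies, each with its own littermate-matched WT mice. Mtg16-/- mice lack Mtg16, which encodes a transcriptional corepressor, and Mtg16 T/T mice are homozygous for a CRISPR-made substitution, P209T, that weakens binding of MTG16 to E proteins. Both alleles are carried by all cells of the mouse, those outside the epithelium included. Proximal crypts were isolated with a chelator from the segment adjoining the cecum and distal crypts from that adjoining the anus, 5 cm long each. Proximal crypts of untreated mice gave 2 Mtg16-/- and 2 WT libraries from the first colony, and 2 Mtg16 T/T and 2 WT libraries from the other. Distal crypts of untreated mice gave 4 Mtg16-/- and 4 WT libraries, and 4 Mtg16 T/T and 3 WT libraries. Distal crypts were also taken after dextran sulfate sodium (DSS), a chemical that injures the colon epithelium, given at 2% in drinking water for 5 days and followed by 4 days of water, with 4 Mtg16-/- and 3 WT libraries and with 3 Mtg16 T/T and 3 WT libraries. Distal tumors were induced with the carcinogen azoxymethane at 10 mg/kg and 3 cycles of 3% DSS for 4 days and water for 16 days, and whole dissected tumors gave 3 Mtg16 T/T and 3 WT libraries. The labels do not say that libraries of a group came from separate mice, so p-values measure the spread between these libraries, which may be technical.

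Cdx1 and Cdx2 are caudal-related homeobox factors that specify and maintain intestinal epithelium, and loss of Cdx2 in the intestine lets gastric genes be expressed. GATA4 is a zinc-finger factor of the proximal small intestine that keeps ileal genes such as bile acid transporters off there, GATA6 is its relative throughout the intestinal epithelium and colon, and HNF4A and HNF4G are paired nuclear receptors that drive enterocyte genes. Evx2 is a homeobox gene at the end of the Hoxd cluster next to Hoxd13, and genes at that end of the cluster are expressed in the most posterior part of the gut.

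On build GRCm38, with GENCODE vM21 gene models, Hnf4a lies at chr2:163506808-163572910 (plus strand), Hnf4g at chr3:3508030-3658052 (plus) and Gata4 at chr14:63198922-63271692 (minus). Promoter sequences from RefSeq on build GRCm38.p6, covering 250 bases before to 50 bases after a gene's start, were at hand for 3 of the 7 genes: Cdx2, Evx2 and Hnf4a. Those of Cdx2 and Evx2 are shown 5′ to 3′ because these genes had opposite gradients along the colon. Cdx2 (chr5:147300805-147307270, minus strand) is shown for chr5:147307200-147307499, and Evx2 (chr2:74652991-74659557, minus strand) for chr2:74659508-74659807. Capitals mark CAGCTG, an E-box of the kind bound by E proteins, in the Cdx2 promoter, and TTTAT or its reverse complement ATAAA, the core of CDX and posterior HOX sites, in that of Evx2.
Cdx2: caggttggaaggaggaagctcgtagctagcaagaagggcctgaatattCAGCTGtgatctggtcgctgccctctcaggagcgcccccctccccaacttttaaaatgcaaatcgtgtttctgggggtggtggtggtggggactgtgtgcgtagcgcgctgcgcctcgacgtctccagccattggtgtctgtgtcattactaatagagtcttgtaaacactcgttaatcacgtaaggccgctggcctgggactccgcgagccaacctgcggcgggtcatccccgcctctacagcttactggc
Evx2: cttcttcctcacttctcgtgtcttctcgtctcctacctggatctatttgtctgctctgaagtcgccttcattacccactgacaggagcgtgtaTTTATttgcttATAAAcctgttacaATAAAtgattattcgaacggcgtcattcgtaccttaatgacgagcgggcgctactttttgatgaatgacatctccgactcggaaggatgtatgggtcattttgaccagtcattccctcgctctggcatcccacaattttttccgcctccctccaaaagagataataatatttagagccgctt
Both strands were searched. The Cdx2 window held CAGCTG once, starting at base 49 of the window, and no TTTAT, and the Evx2 window held TTTAT or ATAAA at bases 94, 105 and 119 and no CAGCTG. Of 32851 promoters of this length, 16.3% held CAGCTG and 40.0% held TTTAT. The GATA motif AGATAA, found in 11.2% of promoters, occurred in the Evx2 window and in 1 of the 2 Hnf4a windows. CAAAGTCC, part of an HNF4 site and present in 1.42% of promoters, occurred in none of these windows. A match of letters is a description, not a bound site.

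The values deposited by the authors are normalized counts, which are reads per gene divided by a size factor for each library, and they were set separately in each table. Tests were therefore made within a table, with limma on log2(normalized count + 1) over genes with a mean of at least 10, and a gene was called at a Benjamini-Hochberg adjusted p below 0.05. A log2 fold change on this scale understates the change of genes with low counts. Levels across tables are given as CPM (counts per 1000000 counts of the library), as a description without a test, and levels of different genes are compared only as CPM per kilobase of exon. The 38 libraries whose reads could be recovered held 32231389 to 74661887 reads each, with a median of 46659625, and the 4 proximal mutant libraries had normalized totals only. Intervals and floors cover counting error only. Of the genes that overlap the 7 on the opposite strand, Hnf4aos never passed 0.0988 CPM and 1010001N08Rik, opposite Gata6, reached at most 4.50 CPM, and the library kit does not mark strand.

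The library labelled distal Mtg16-/- replicate 2 went against its label. Its Hoxb13 level, a marker of the most distal colon, was 5.38 CPM, against 382.6 to 516.8 CPM in the other distal libraries of untreated mice, and it had no Hoxd13 read. On a scale where 0 is the mean of the WT proximal libraries and 1 that of the WT distal libraries over 5818 genes, without the 7 described here, it lay at 0.0947, the other distal libraries of untreated mice at 0.936 to 1.04 and the proximal libraries at -0.0296 to 0.0395. It was kept under its label, and results that rest on it are given with and without it. Mtg16, listed as Cbfa2t3, had lower mean counts in Mtg16-/- than in WT in each of the 3 tables that compare them. Counts were 631 to 1057 against 1634 to 3221 proximally, 424 to 1095 against 1027 to 1809 distally and 427 to 595 against 1845 to 2519 after DSS. The distal ranges overlapped. Which exons the null allele lacks is not given in the sources used here. In Mtg16 T/T its counts were above WT distally (1509 to 2196 against 937 to 1040) and proximally (2529 to 2988 against 2034 to 2049). They were also above WT in tumors (1641 to 1931 against 1115 to 1475), and overlapped after DSS (2956 to 3125 against 2244 to 3126). None of these Mtg16 T/T differences was called.

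Along the WT colon, 6 of the 7 genes differed between distal and proximal crypts. Cdx2, Gata4 and Hnf4g were lower distally, Cdx1, Gata6 and Evx2 were higher, and Hnf4a was not called. Across all 13841 genes tested, 42.1% were called in this comparison, 20.1% higher and 22.0% lower, so calls were common. The 7 distal and 4 proximal libraries did not overlap for Cdx2, Gata4, Hnf4g and Evx2, which was the case for 30.0% of all genes.

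**Figure D1:**
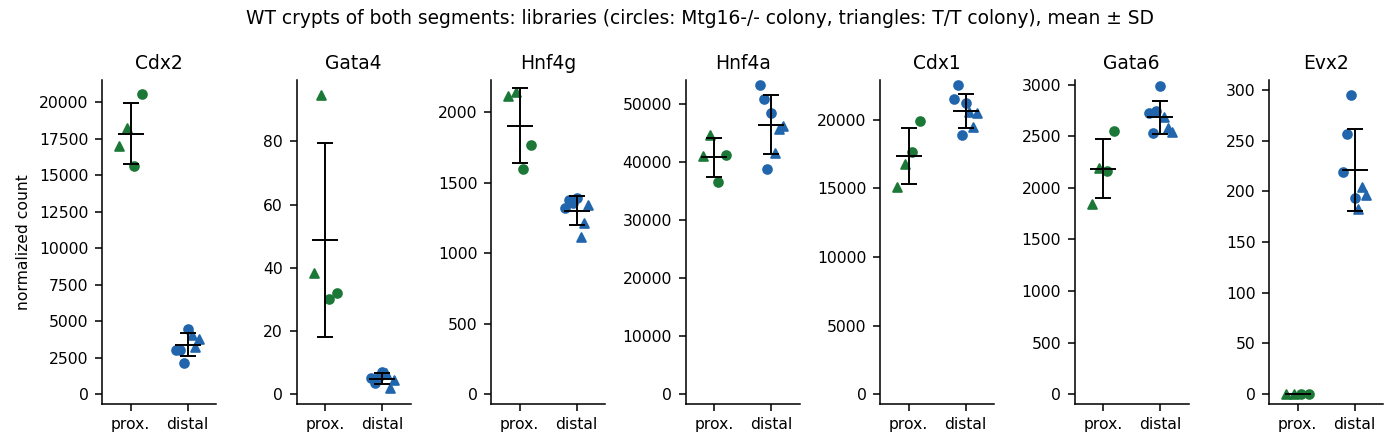
Normalized counts of the 7 genes in WT proximal (n = 4) and WT distal (n = 7) crypts. Each panel is a gene, circles are the Mtg16-/- colony, triangles the Mtg16 T/T colony, and the bars give mean ± SD; Cdx2, Gata4, Hnf4g and Evx2 separate the segments without overlap, and Evx2 is at 0 in all 4 proximal libraries.

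Cdx2 had normalized counts of 15591 to 20566 in the 4 proximal libraries, and a lowest, median and highest value of 2160, 3227 and 4482 in the 7 distal ones. The distal mean was lower, at 3394 ± 770 (SD, n = 7) against 17842 ± 2106 (SD, n = 4). The log2 fold change was -2.42, or 5.35-fold lower on that scale (SE 0.16, limma adjusted p = 4.15e-08, exact permutation p = 0.00303, the smallest that 7 against 4 libraries allow). Every distal library was thus far below every proximal one, and Cdx2 kept its call in each colony alone. In bulk RNA, fewer cells of a type and less RNA per cell cannot be told apart.

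Evx2 had no read in any of the 4 proximal libraries. The 7 distal libraries had a lowest, median and highest normalized count of 182, 204 and 295, with a mean of 221 ± 40.7 (SD, n = 7). Set against a floor of 3 counts per library, this was at least 78.2-fold higher (limma adjusted p = 6.24e-12). Its neighbor Hoxd13 lies at chr2:74668310-74671599 on the plus strand. All 6 genes of a list of its neighbors, Hoxd genes and Lnpk, were also higher distally, with a median log2 fold change of 7.88 against 0.0048 over all genes. Hoxd13 had 3496 to 6473 normalized counts distally and no read proximally, at least 1573-fold, and Hoxd12 was at least 97.2-fold higher by the same floor. Hoxd11 had a mean of 513 ± 176 (SD, n = 7) distally against 2 reads over the 4 proximal libraries, and Hoxd10 had 164 to 426 against 1 read.

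Gata4 was the least abundant gene of the 7 in distal crypts, with 2.09, 5.04 and 7.13 as lowest, median and highest normalized count, which came from 34 reads in all. The 4 proximal libraries held 30.3, 32.0, 38.3 and 94.7, from 206 reads. The log2 fold change was -2.98 (SE 0.38, limma adjusted p = 2.31e-05). The highest of these values, 94.7, came from WT replicate 2 of the Mtg16 T/T colony, and the groups were apart without it as well. That library also held the Paneth cell gene Defa24 at 11.1 CPM and the ileal bile acid-binding gene Fabp6 at 42.4 CPM, against 0 and 3.49 to 4.96 CPM in the other WT proximal libraries. A sum of 5 Paneth and ileal markers was 102.5 to 204.8 CPM in WT proximal and 11.8 to 77.0 CPM in WT distal libraries. Of the 4 markers tested, Slc10a2 was called lower distally, none was called higher and 1 had a positive log2 fold change. Fabp6 was at 7.02 to 74.4 CPM in WT distal libraries, above 3 of the 4 proximal ones, and Defa24 was at 0 in 3 of the 4 WT proximal and all 7 WT distal libraries. The part of these markers in the Gata4 difference was not tested.

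Gata6 (chr18:11052064-11085635, plus strand) went the other way. Its normalized counts were 1845 to 2549 in the 4 proximal libraries, and 2530, 2687 and 2987 as lowest, median and highest value distally, so the ranges overlapped only at their ends. The log2 fold change was 0.30 (SE 0.08, limma adjusted p = 0.00780). The related genes Gata5 and Gata3 were both lower distally, Gata5 with 2.09 to 15.3 against 74.1 to 250 (log2 fold change -4.46) and Gata3 with 7.78 to 18.5 against 61.1 to 96.2 (log2 fold change -2.52). Gata3 is also a T cell gene, and a sum of T cell markers was 21.2 to 34.7 CPM in WT proximal and 3.42 to 13.3 CPM in WT distal libraries, with 4 of 4 tested markers lower distally. The epithelial sum was 12570 to 13820 CPM in WT proximal and 14880 to 16130 CPM in WT distal libraries, with 3 of 6 tested markers called, all higher distally, and a median log2 fold change of 0.24. The myeloid sum was 71.5 to 78.9 against 94.9 to 158.7 CPM, with 2 of 5 tested markers called higher and 1 called lower distally, and the endothelial and smooth muscle sums, under 9 CPM in each library, did not overlap either. The plasma cell and fibroblast sums overlapped, with 2 of 3 and 1 of 4 tested markers called lower distally. The part of these markers in the Cdx1 and GATA differences was not tested.

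Hnf4g counts were 1595, 1771, 2115 and 2147 proximally and ranged from 1114 to 1391 distally, with means of 1907 ± 269 (SD, n = 4) and 1302 ± 102 (SD, n = 7). The log2 fold change was -0.54 (SE 0.09, limma adjusted p = 0.000346). Its partner Hnf4a overlapped between segments, with 36458 to 44663 proximally and 38811 to 53195 distally (log2 fold change 0.18, SE 0.09, limma adjusted p = 0.141). Hnf4g was thus called and Hnf4a was not, and the difference between them was not tested.

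Cdx1 (chr18:61018862-61036199, minus strand) was slightly higher distally, opposite to Cdx2. Its counts were 15071 to 19929 proximally and 18873 to 22515 distally, with a log2 fold change of 0.26 (SE 0.08, limma adjusted p = 0.0165), and the ranges overlapped. The calls of Cdx1, Gata6 and Hnf4g were lost when the number that opens the library names (4149, 5094 or 5582) was a covariate, with adjusted p of 0.607, 0.0823 and 0.0905, or when only libraries of number 4149 were used. In the Mtg16-/- colony alone the calls of Cdx1 and Gata6 were lost (adjusted p of 0.327 and 0.170), and that of Cdx1 was lost without WT proximal replicate 1 of the Mtg16 T/T colony (0.0702). In the libraries of number 4149 alone, adjusted p was 0.755 for Cdx1, 0.236 for Gata6 and 0.205 for Hnf4g. Cdx2, Gata4 and Evx2 were called in every setting tried for this comparison.

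Known targets and other identity genes were read from lists in the same comparison. Of 8 tested CDX2 target genes, 5 were lower distally and none was higher, with a list median of -0.83 on the log2 scale against 0.0048 over all genes. Sis, the brush border sucrase-isomaltase, had 0.630 to 8.08 normalized counts distally against 110 to 1087 proximally (log2 fold change -5.81), Alpi, intestinal alkaline phosphatase, had 16.7 to 62.1 against 978 to 1828 (-5.10), and the homeobox gene Isx had 43.5 to 377 against 5457 to 7231 (-5.25). Mep1a, a brush border protease, was lower by a smaller factor (-1.05). Of 6 tested HNF4 targets, 1 was higher, the transthyretin gene Ttr (941 to 1891 against 74.4 to 107, log2 fold change 3.74), and 1 was lower, the fatty acid-binding gene Fabp2 (877 to 1462 against 11834 to 17451, log2 fold change -3.74). The HNF4 list thus had no shared direction.

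Of 4 tested ileal bile acid genes, 3 were lower distally: the basolateral transporter genes Slc51a (0 to 13.2 against 2469 to 6543 normalized counts) and Slc51b (log2 fold change -1.42) and the apical transporter gene Slc10a2 (113 to 425 against 4272 to 9513). Of 13 gastric genes, 7 were listed and only 2 had enough counts to be tested. Both were higher distally, Ctse, which encodes cathepsin E, with 3254 to 5511 against 295 to 881, and Pdx1, a homeobox factor of pancreas, duodenum and antrum, with 22.0 to 61.5 against 3.10 to 10.7. Pdx1 had a proximal mean of 8.25, so it passed the filter through its distal counts. Of 17 tested other epithelial identity factors, 8 were called, 4 in each direction. Isx and Prdm1 (log2 fold change -0.90) were lower and Foxa2 (2.12, 1843 to 2698 against 443 to 555) and Tcf7l2 (0.44, with overlap) were higher. The call on Tcf7l2 was lost in 3 of 11 fits that left out a library (limma adjusted p of 0.0674 and 0.0730 without WT proximal replicates 1 and 2 of the Mtg16 T/T colony and 0.0906 without replicate 1 of the Mtg16-/- colony), with the replicate block (0.0506), with library number as a covariate (0.103), within number 4149 (0.258) and in the Mtg16-/- colony alone (0.130). The calls on Prdm1 and Pdx1 were lost with library number as a covariate (0.110 and 0.0688) and within 4149 (0.0895 and 0.0690). Of 4 tested paralogs of the 7 genes, Gata5 and Gata3 were lower and Evx1, the paralog of Evx2, was higher, with 59.7 to 114 against 10.7 to 50.2 (log2 fold change 1.47), a call lost in the Mtg16 T/T colony alone (limma adjusted p = 0.0941). Evx1 thus had reads in proximal crypts, where Evx2 had none. The lists were chosen with results of these data known, and 42.1% of all genes were called, so these counts describe the lists only.

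**Figure D2:**
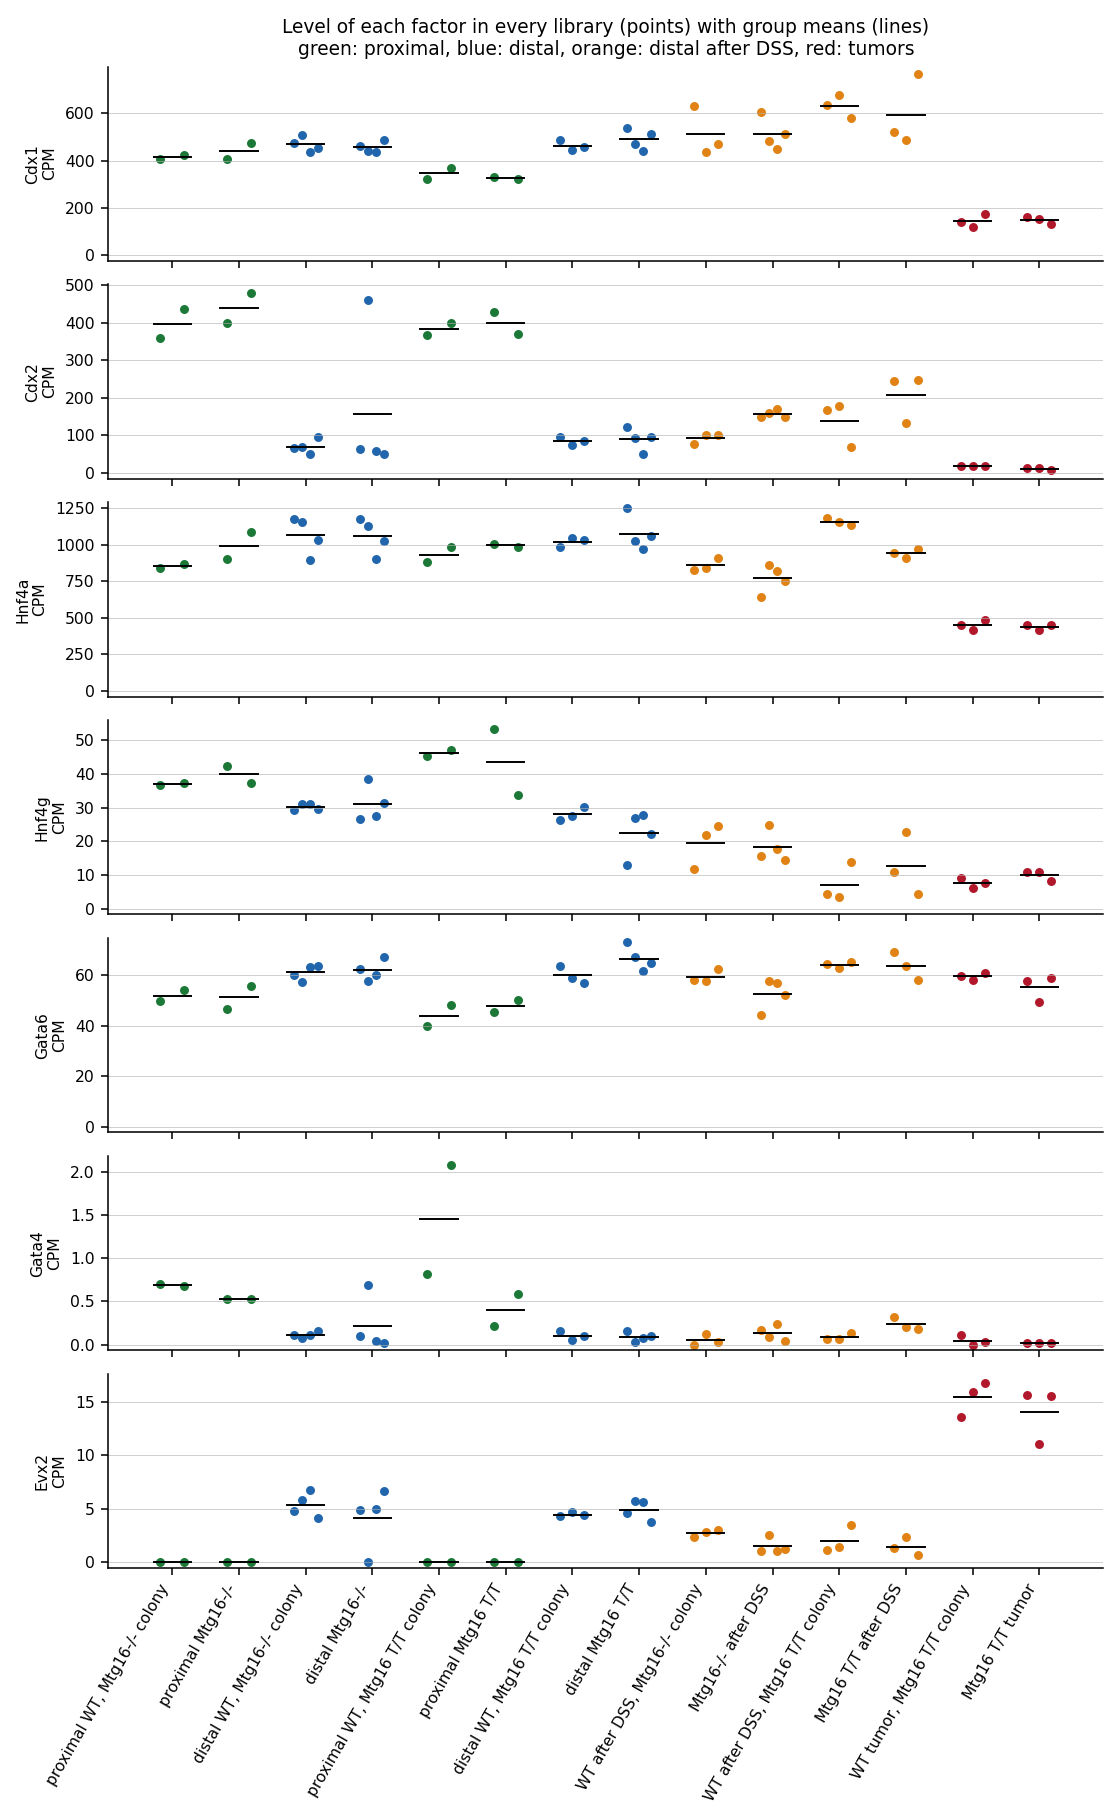
Level of each of the 7 genes in CPM (vertical axis of each panel) in all 42 libraries by group, with lines at group means; proximal crypts are green, distal crypts of untreated mice blue, distal crypts after DSS orange and tumors red. Cdx2 is high in proximal crypts and lowest in tumors, Evx2 is highest in tumors, and 1 library labelled distal Mtg16-/- stands at the proximal level of Cdx2; Evx2 is not listed in the proximal mutant tables and is drawn at 0 there.

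Across genes, Cdx1 and Hnf4a were the most abundant of the 7 in crypts. In WT distal libraries the median levels per kilobase were 262.4 CPM for Cdx1, 214.3 for Hnf4a, 32.6 for Cdx2, 11.3 for Hnf4g, 9.24 for Gata6, 1.11 for Evx2 and 0.0290 for Gata4, and no neighbors in this order overlapped over 7 libraries. In WT proximal libraries, Cdx1 (median 222.0), Hnf4a (181.3) and Cdx2 (169.4 CPM per kilobase) overlapped, and Hnf4g (15.8), Gata6 (7.54) and Gata4 (0.195) followed without overlap. Cdx2 thus stood beside Cdx1 and Hnf4a proximally and clearly below both distally.

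The comparison of genotypes in untreated mice asked whether loss of Mtg16, or weaker binding of MTG16 to E proteins, moved these genes. In proximal crypts of Mtg16-/- mice, 0 of 6 tested genes were called by limma, where 0.0645% of all genes were, and 0 had an unadjusted p under 0.05. Cdx2 counts were 19364 and 23649 against 16813 and 21928 in WT, and Gata4 counts were 25.7 and 25.9 against 32.6 and 34.1 (log2 fold change -0.36, limma adjusted p = 0.958). Gata4 was the only gene of the 6 whose groups did not overlap, as held for 35.6% of all genes. The epithelial sum was 14160 and 15380 against 12570 and 13490 CPM and the plasma cell sum 41.2 and 48.0 against 10.1 and 27.5 CPM, without overlap. Also without overlap were the endothelial (5.82 and 5.87 against 3.36 and 5.62), myeloid (73.0 and 95.9 against 71.5 and 72.3) and mesothelial sums (0.847 and 0.855 against 0.985 and 1.27 CPM). The part of these sums in the Gata4 values was not tested. With 2 libraries a group, the smallest exact permutation p is 0.333, so single genes could not pass such a test. Evx2 was not listed in this table, where the lowest mean above 0 was 0.429 normalized counts.

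In distal Mtg16-/- crypts, 0 of 6 tested genes were called by limma, edgeR or DESeq2, where limma called 0.239% of all genes, and 0 had an unadjusted p under 0.05. Cdx2 counts were 2282, 2568 and 2984 in 3 Mtg16-/- libraries and 20920 in the library labelled replicate 2, against 2220, 3111, 3114 and 4585 in WT, which gave a log2 fold change of 0.47 with it and -0.28 without it. Evx2 had 1 read in that library and 219, 225 and 307 normalized counts in the others, against 198 to 303 in WT, and its log2 fold change went from -1.71 with it to 0.02 without it. Directions of Cdx2 and Evx2 in this comparison were therefore set by 1 library. All 7 genes overlapped between the groups, where 3.75% of all tested genes did not, and Cdx1, Gata6, Hnf4a and Hnf4g had log2 fold changes between -0.06 and -0.0059. Gata4 had too few counts to be tested, with 0.818 to 31.4 against 3.47 to 7.29 in WT, and 31.4 came from the same library.

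**Figure D3:**
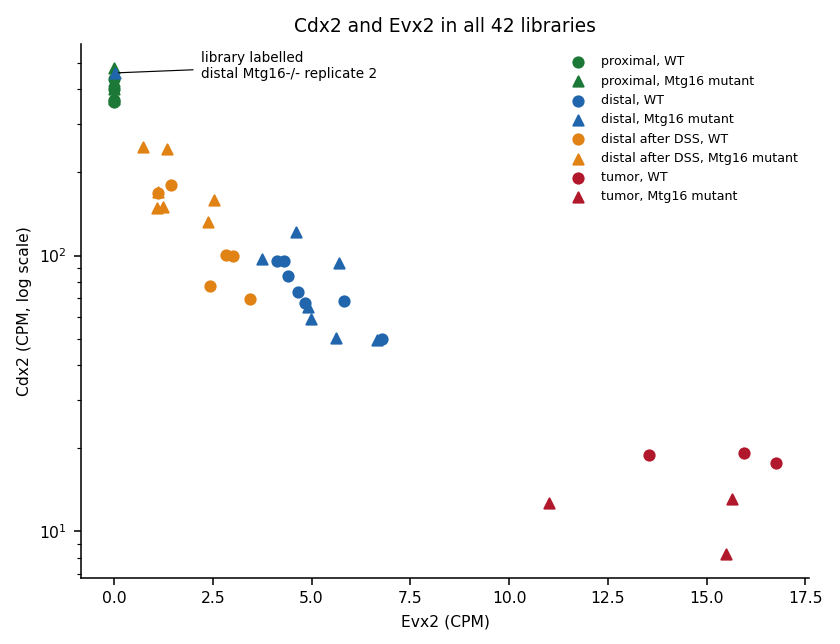
Cdx2 (vertical axis, CPM, log scale) against Evx2 (horizontal axis, CPM) in the 42 libraries, colored by segment and state. Proximal libraries lie at an Evx2 of 0 and a high Cdx2, tumors at the highest Evx2 and the lowest Cdx2, and the library labelled distal Mtg16-/- replicate 2, at 459 CPM of Cdx2, lies among the proximal ones; proximal mutants are drawn at an Evx2 of 0 because the gene is not listed there.

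Mtg16 T/T proximal crypts gave 0 of 6 called genes by limma, where 0.232% of all genes were called, and 1, Gata4, had an unadjusted p under 0.05. Gata4 counts were 9.52 and 26.2 against 37.2 and 91.1 in WT (log2 fold change -1.81, limma adjusted p = 0.359). The log2 fold change was -1.18 without WT replicate 2, which held 91.1 and is the library with Defa24 and Fabp6, -2.45 without WT replicate 1, -1.13 without Mtg16 T/T replicate 1 and -2.49 without Mtg16 T/T replicate 2. The 5 tested Paneth and ileal markers had a median log2 fold change of -2.81 with 0 called, Defa24, Defa30 and Mptx2 were at 0 in both Mtg16 T/T libraries, and their part in the Gata4 values was not tested. The myeloid sum was 56.0 and 61.0 against 75.2 and 78.9 CPM and the T cell sum 22.6 and 23.9 against 24.6 and 34.7 CPM, without overlap, with their part not tested either. Hnf4a counts were 44390 and 44443 against 39844 and 42963 (log2 fold change 0.10). These were the 2 genes of the 6 whose groups did not overlap, as held for 45.5% of all genes. Cdx2, at 16614 and 18960 against 16537 and 17507, and Hnf4g, at 1516 and 2361 against 2056 and 2065, overlapped. In this table, too, Evx2 was not listed, and the lowest mean above 0 was 0.465 normalized counts.

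In distal Mtg16 T/T crypts, 0 of 6 tested genes were called by limma, edgeR or DESeq2, against 0.0369% of all genes by limma, and 0 had an unadjusted p under 0.05. Hnf4g counts were 491, 914, 1061 and 1110 against 1046, 1134 and 1241 in WT (log2 fold change -0.42, limma adjusted p = 0.863). The value of 491 came from Mtg16 T/T replicate 1. In that library log2 counts fell by 0.184 for each doubling of transcript length relative to the mean of the libraries, against slopes of -0.00284 to 0.0763 in the others. None of the 7 genes separated the groups, where 7.70% of all tested genes did, and Cdx2, at 2015 to 4623 against 3020 to 3800, had a log2 fold change of 0.0052. No difference of a Mtg16-/- or Mtg16 T/T effect between segments, between the alleles distally or between the alleles after DSS was called for Cdx1, Cdx2, Gata6, Hnf4a or Hnf4g, nor for Evx2 between the alleles (limma adjusted p of 0.763 or more), where 0.0372%, 0.0229%, 0.00% and 0.0148% of all genes were called. Gata4 was in none of these tests, and Evx2 was in neither test between segments.

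**Figure D4:**
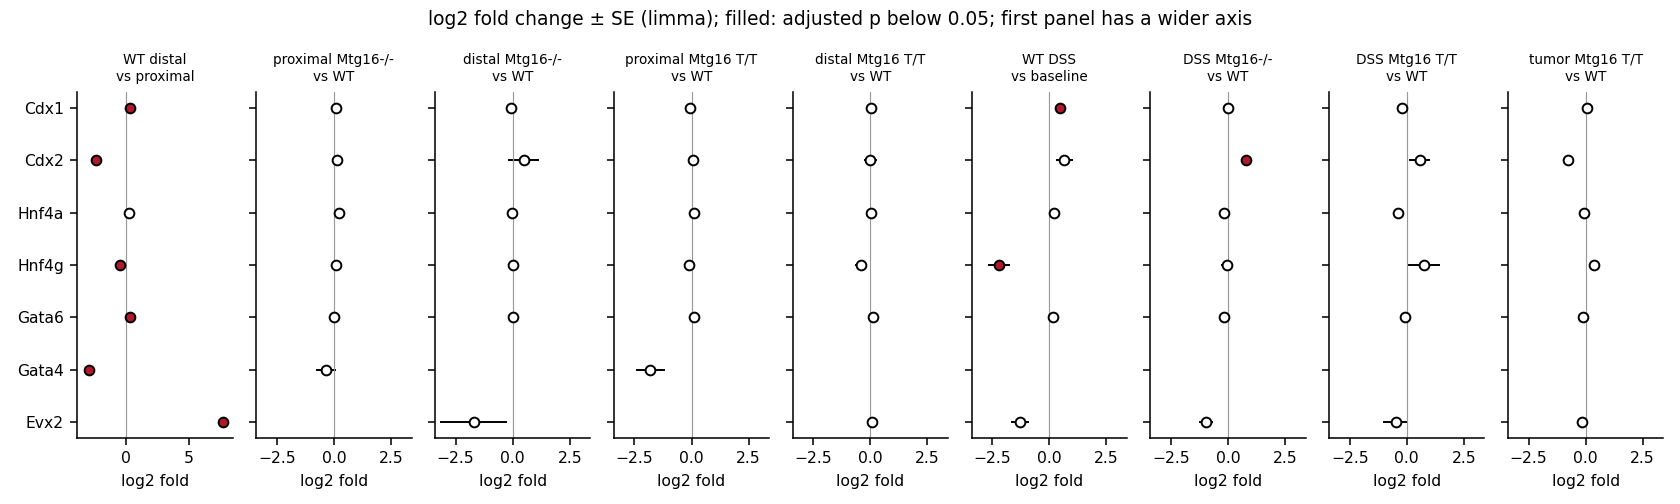
Log2 fold change ± SE from limma (horizontal axis) of each gene in the 9 comparisons, one panel each, with filled points for an adjusted p below 0.05; the first panel has a wider axis. WT distal against proximal has 6 filled points, WT DSS against untreated has 2, Mtg16-/- against WT after DSS has 1, and the other 6 panels have none.

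WT distal crypts after DSS were compared with those of untreated WT mice, all of the Mtg16 T/T colony, 3 libraries each. Cdx1 rose and Hnf4g fell, which made 2 of 6 tested genes called, against 35.6% of all genes (14.0% higher and 21.6% lower). Of the 7 genes, 5 did not overlap between the groups, as held for 55.3% of all genes. The 2 groups also differ in the number that opens their library names, 5740 after DSS and 5094 without, and this cannot be told apart from DSS. The smallest exact permutation p of 3 against 3 libraries is 0.1. The number of genes called here depended on single libraries: it was 4833 with all 6, 9086 without WT replicate 3 after DSS, 1 without untreated WT replicate 2, and 514 to 1822 without any of the other 4.

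Cdx1 counts were 27622, 30797 and 33490 after DSS, above the 20897 to 22466 without it (log2 fold change 0.49, SE 0.11, limma adjusted p = 0.0202). Hnf4g counts were 167, 207 and 653 after DSS, below 1215, 1302 and 1433 without it (log2 fold change -2.21, SE 0.49, limma adjusted p = 0.0205). Both genes separated the groups. Hnf4g was lowest in the libraries whose counts fell most with transcript length, with slopes of -0.225 (207), -0.320 (167) and 0.069 (653) on the log2 scale per doubling of length, against 0.148 to 0.173 without DSS. With each library's length trend removed, an alternative chosen after seeing the data, its log2 fold change was -2.19 (limma adjusted p = 0.0133). WT libraries of the Mtg16-/- colony were read without a test, and their numbers also differ, 6217 after DSS and 4149 or 5094 without. Cdx1 there was at 438 to 629 CPM after DSS and 434.5 to 510 CPM without, with overlap. Hnf4g there was at 11.8 to 24.5 against 29.2 to 31.2 CPM, and in the Mtg16 T/T colony at 3.38 to 13.7 against 26.4 to 30.1 CPM.

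**Figure D5:**
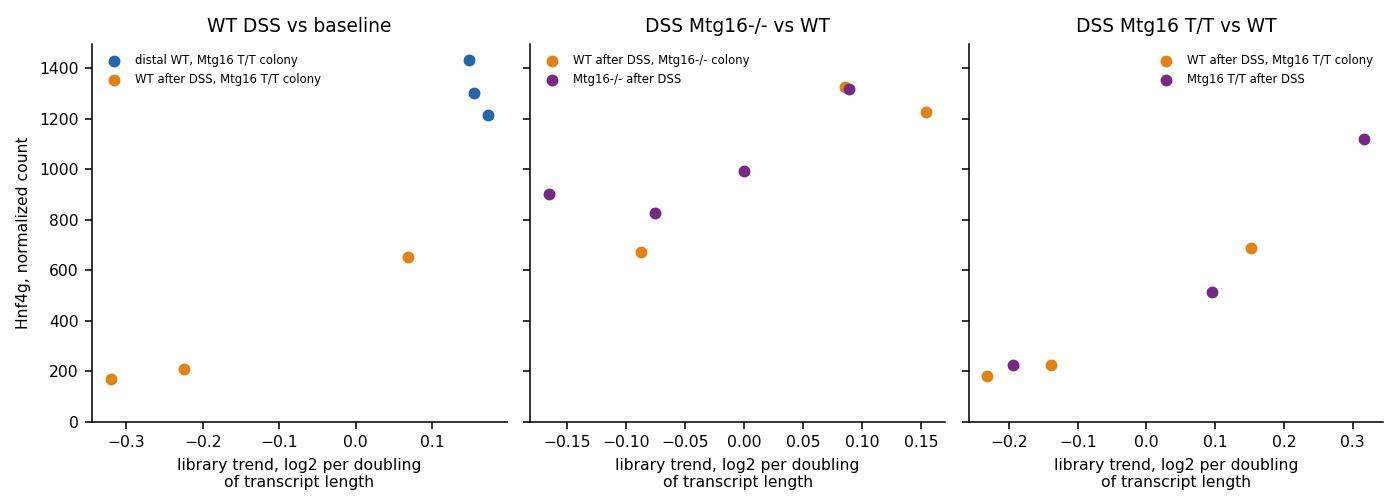
Normalized count of Hnf4g (vertical axis) against the slope of log2 counts with transcript length in the same library (horizontal axis, log2 per doubling of length, relative to the mean of the table), for WT after DSS against untreated, and for Mtg16-/- and Mtg16 T/T against WT after DSS. In each panel the 3 libraries with the lowest slopes have the 3 lowest Hnf4g counts, and the lowest count of the first panel, 167, stands at a slope of -0.320.

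Evx2 counts after DSS were 54.5, 71.3 and 164, below 199, 209 and 219 without it, and just missed the threshold (log2 fold change -1.27, SE 0.41, limma adjusted p = 0.050003). Cdx2 counts were 3301, 8170 and 8878 against 3466 to 4415, so 2 of the 3 DSS libraries lay far above and 1 below the untreated ones (log2 fold change 0.65, limma adjusted p = 0.197). WT replicate 3 was the DSS library with the lowest Cdx2, the highest Hnf4g and the highest Evx2. Without it 5 of 6 genes were called, with log2 fold changes of 1.11 for Cdx2, -1.73 for Evx2, 0.26 for Hnf4a, -2.81 for Hnf4g and 0.56 for Cdx1. Leaving out any other library of this comparison left 0 called.

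Hnf4a counts were 53735 to 57372 after DSS against 45244 to 49258, and Gata6 counts were 3097 to 3120 against 2712 to 2931. Neither group pair overlapped, and neither gene was called (limma adjusted p of 0.0973 and 0.259). Hnf4a was called with the length trend removed (log2 fold change 0.48, limma adjusted p = 0.0327). In WT of the Mtg16-/- colony, without a test, Hnf4a was at 828 to 910 CPM after DSS and 893.5 to 1175 CPM without. Gata4 had 2.25 to 7.28 normalized counts in all 6 libraries, too low to be tested. The fibroblast sum of 6 markers was 2.97 to 7.34 CPM after DSS and 0.947 to 2.38 CPM without, and the epithelial sum 17180 to 23570 against 14880 to 16130 CPM, each with 2 tested markers called higher. The mesothelial sum was 0.251 to 0.522 against 0.0526 to 0.167 CPM, with its 1 tested marker called higher, and the plasma cell sum was 4.09 to 7.08 against 7.70 to 17.4 CPM, with 0 of 3 called. The myeloid sum overlapped, at 142.2 to 161.1 against 122.6 to 156.2 CPM, with 1 of 5 tested markers called higher and all 5 positive. The part of these markers in these differences was not tested.

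Over all genes 35.6% were called in this comparison, and counts in the lists were read beside that share. Of the lists, 3 of 7 tested CDX2 targets rose after DSS in WT, Alpi (log2 fold change 2.07), Isx (1.96) and the microvillus gene Vil1 (0.40), and none fell. Of 17 other identity factors, 7 rose and 3 fell, with the largest changes in Isx, the epithelial ETS factor Ehf (-1.83) and the nuclear receptor gene Nr5a2 (-1.21). Of 5 tested HNF4 targets, the apolipoprotein gene Apob fell (-3.91) and Ttr rose (0.56). Of the paralogs, Evx1 rose, with 159 to 227 against 64.1 to 82.5 normalized counts (log2 fold change 1.38), while its partner Evx2 had a negative log2 fold change. Of 3 tested bile acid genes, Slc10a2 fell (-2.83). Of 13 gastric genes 3 were tested, and Ctse rose (0.55), as did the mucin gene Muc6, with 23.7 to 45.4 normalized counts against 2 reads in all without DSS. Muc6 thus passed the filter through its counts after DSS. Of the 6 genes beside Evx2, Lnpk was called, with a log2 fold change of -1.82. All 6 log2 fold changes of that list were negative, with a median of -0.81 against 0.0040 over all genes. Leaving out 1 library at a time ended the call of each gene named here in 1 to 5 of 6 fits, in 5 for Alpi, Isx, Vil1, Ehf, Nr5a2 and Ttr, in 4 for Apob, Slc10a2, Ctse and Lnpk, in 2 for Evx1 and in 1 for Muc6.

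After DSS, Cdx2 was higher in Mtg16-/- than in WT crypts. It was the 1 of 6 tested genes that was called, against 0.629% of all genes (0.380% higher and 0.249% lower). Its counts were 8468, 8380, 9563 and 8649 in Mtg16-/- and 4452, 5575 and 5414 in WT. The means were 8765 ± 544 (SD, n = 4) and 5147 ± 607 (SD, n = 3), a log2 fold change of 0.77 (SE 0.14, limma adjusted p = 0.0431, exact permutation p = 0.0286, the smallest possible). The lowest Mtg16-/- value was thus well above the highest WT value. With a block for replicate number, which leaves out the unpaired Mtg16-/- replicate 4, adjusted p was 0.00292, and with edgeR it was 0.0518. Leaving out any library raised it to between 0.0597 and 0.168 at a log2 fold change of the same sign.

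Evx2 had the opposite sign in the same libraries, with 61.5, 62.6, 71.6 and 133.4 in Mtg16-/- against 138, 158 and 163 in WT (log2 fold change -0.96, limma adjusted p = 0.217, exact permutation p = 0.0571). The groups did not overlap for Cdx2, Evx2, Gata6 (2514 to 3195 against 3219 to 3374) and Hnf4a (36557 to 46113 against 46922 to 49286), 4 of the 7, as held for 11.4% of all genes. Gata6 and Hnf4a had small log2 fold changes of -0.17 and -0.16 and were not called (limma adjusted p of 0.675 and 0.721). Cdx1 (25109 to 34672 against 24421 to 35983) and Hnf4g (827 to 1320 against 674 to 1325) overlapped, and Gata4, at 2.10 to 13.6 against 0 to 6.84, was not tested. Of the lists, Creb3l3, an enterocyte and liver factor counted both as an identity factor and as an HNF4 target, was higher in Mtg16-/- (log2 fold change 2.60), Fabp6 was lower (-1.39) and Ctse was lower (-0.95), 1 call in each list. Each of these 3 calls was lost in 6 of 7 fits that left out a library, with adjusted p of up to 0.122, 0.122 and 0.130. The CDX2 targets, the paralogs and the genes beside Evx2 had none.

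Sums of markers of other cell types were read in the same samples. The mesothelial sum was 1.67 to 5.08 CPM in Mtg16-/- and 0.556 to 1.29 CPM in WT after DSS, and the Paneth and ileal sum was 8.46 to 11.9 against 14.4 to 17.9 CPM, with Defa24, Defa30 and Mptx2 at 0 in both groups and 1 of 2 tested markers, Fabp6, called lower (4.11 to 6.49 against 10.4 to 15.1 CPM). The other tested marker, Slc10a2, had a positive log2 fold change and was not called. Neither of these sums overlapped between the genotypes. The fibroblast sum overlapped, at 8.48 to 78.7 CPM in Mtg16-/- and 7.16 to 9.04 CPM in WT with 0 of 4 tested markers called, as did the myeloid sum, at 185 to 322 against 160 to 212 CPM. Of the 5 myeloid markers, 1 was called higher and 4 had a positive log2 fold change, with a median of 2.05 against -0.0023 over all genes. On the segment scale, where 1 is WT distal, the Mtg16-/- libraries after DSS lay at 0.669 to 0.760 and the Mtg16 T/T libraries at 0.680 to 0.814, against 0.866 to 0.951 in WT after DSS. The part of these values in the Cdx2 difference was not tested.

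In Mtg16 T/T crypts after DSS, 0 of 6 tested genes were called by limma, edgeR or DESeq2, against 0.00% of all genes by limma, and 1 had an unadjusted p under 0.05. Hnf4a counts were 44284, 44729 and 50062 against 56736 to 62365 in WT (log2 fold change -0.38, limma adjusted p = 0.482), without overlap. Cdx2 counts were 6551, 11411 and 12696 against 3485, 8881 and 9573 (log2 fold change 0.56, limma adjusted p = 0.752), with overlap. Gata4 counts were 9.31, 10.0 and 15.0 against 3.34, 3.53 and 6.89, too low to be tested. Gata4, Gata6 (2988 to 3241 against 3270 to 3392) and Hnf4a were the 3 genes of the 7 without overlap, as held for 13.7% of all genes. Hnf4g ranged from 225 to 1120 against 181 to 689, and Evx2 from 38.2 to 117 against 59.3 to 173. The spread within each group was wide for Cdx2, Hnf4g and Evx2, and slopes with transcript length spanned -0.232 to 0.152 in WT and -0.194 to 0.317 in Mtg16 T/T. Sums of markers separated the same libraries: mesothelial markers were at 1.28 to 2.97 CPM in Mtg16 T/T and 0.251 to 0.522 in WT, plasma cell markers at 10.3 to 14.4 against 4.09 to 7.08 CPM, and Paneth and ileal markers at 5.86 to 14.5 against 15.6 to 15.8 CPM. All 6 epithelial markers had negative log2 fold changes, with a median of -0.29 and 0 called. The part of these values in the Hnf4a, Gata6 and Gata4 values was not tested. None of the lists had a called gene in this comparison, in tumors or in either genotype comparison of untreated mice.

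In tumors, 0 of 6 tested genes differed between Mtg16 T/T and WT by limma, edgeR or DESeq2, against 0.00% of all genes by limma, and 1, Cdx2, had an unadjusted p under 0.05. Cdx2 counts were 394, 615 and 635 in Mtg16 T/T and 888, 919.2 and 919.5 in WT (log2 fold change -0.76, SE 0.20, limma adjusted p = 0.998, exact permutation p = 0.1, the smallest possible). The groups did not overlap, as held for 5.52% of all genes, and the other 6 genes overlapped. All 6 epithelial markers had negative log2 fold changes here (median -0.23, 0 called), with sums of 8800 to 10030 CPM in Mtg16 T/T and 9185 to 14110 CPM in WT. All 5 smooth muscle markers had positive ones (median 0.88, 0 called), with sums of 477.5, 524.1 and 2009 against 294 to 582 CPM. Both sums overlapped between the genotypes. The Paneth and ileal sum did not, at 131.4, 181.4 and 202.8 CPM in Mtg16 T/T and 59.0, 121.7 and 123.3 CPM in WT, with 4 of 5 markers positive (median 0.77) and 0 called. The part of these markers in the Cdx2 values was not tested.

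Across tables, without a test, tumors held 8.31 to 19.2 CPM of Cdx2, below the 69.5 to 246.5 CPM of distal crypts after DSS and the 49.6 to 122 CPM of distal crypts of untreated mice without the library that went against its label. Cdx1 was also lower, at 118 to 173 CPM against 438 to 765 and 434.5 to 539 CPM, as was Hnf4a, at 413 to 487 against 641 to 1184 and 893.5 to 1248 CPM. Gata6, at 49.5 to 60.7 CPM, was within the 44.1 to 69.1 CPM of crypts after DSS. Evx2 was higher in tumors, at 11.02 to 16.75 CPM against 0.741 to 3.45 after DSS and 3.75 to 6.79 CPM in untreated mice. The tumors were whole tissue, with a fibroblast sum of 2634 to 3607 CPM against at most 78.7 CPM in any crypt library and an epithelial sum of 8800 to 14110 CPM against 12570 to 23570 CPM in crypts, and the part of this difference in the levels was not tested.

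The order of the genes per kilobase also shifted. In tumors the medians were 93.3 CPM for Hnf4a and 84.3 for Cdx1, which overlapped, then 8.99 for Gata6, 6.82 for Cdx2, 3.71 for Evx2 and 3.34 for Hnf4g, each overlapping the next, and 0.0051 for Gata4. In WT crypts after DSS, Gata6 (9.60) and Hnf4g (4.85) had changed places and overlapped, with Cdx1 at 346.0, Hnf4a at 211.4, Cdx2 at 44.2, Evx2 at 0.628 and Gata4 at 0.0167. Cdx2 thus went from beside Cdx1 and Hnf4a in proximal crypts to the level of Gata6 in tumors.

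The genes most like each of the 7 were read from Pearson's r of log2(CPM + 1) over the 36 crypt libraries among 10318 genes. These libraries share segment, treatment and depth, so r is a description. For Cdx2 they were Higd1a (0.965), Nkain1 (0.962) and Car12 (0.961). In the 28 libraries labelled distal, Higd1a was at 0.927, and at 0.896 in 27 without the library that went against its label. For Evx2 they were Itih5 (0.975), Hoxd11 (0.971) and Npy1r (0.970), and for Hnf4g Trim2 (0.988), Nr3c1 (0.976) and Usp33 (0.975). Cdx1 was most like 2510039O18Rik (0.952), Cops7a (0.951) and Kcnn4 (0.950), and Hnf4a was most like Vsig10 (0.904), Rap1gap2 (0.873) and Susd6 (0.856). Gata6 was most like Rnf44 (0.874), Spata13 (0.871) and the E-cadherin gene Cdh1 (0.867), and Gata4 was most like Enpep (0.858), Slc13a1 (0.847) and Ntrk2 (0.834). For Gata4, the distal libraries gave 0.666 for Enpep, 0.855 for Slc13a1 and 0.846 for Ntrk2, and 0.0582, 0.618 and 0.575 without that library. Over all crypt libraries but that one, 35 in number, they were 0.849, 0.837 and 0.824.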

How the data were processed

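Crypt and tumor RNA was measured by poly(A) RNA-Seq in 42 libraries. Per the submitters' processing notes and the study's methods, the authors trimmed reads with fastp 0.20.0, quantified transcripts with Salmon 1.3.0 on mm10 with GENCODE vM21, and normalized within each table with DESeq2 1.26.0 in R 3.6.3. The deposited values are therefore a signal of normalized counts, not raw counts, so a count model was replaced by limma 3.58.1 (trend, log2 of value + 1, genes with a mean of at least 10, R 4.3.3) as the main test. The deposited fold changes and p-values of the authors were not used. Dividing by the size of 1 read gave whole reads for 100% of values (within 0.01) in 7 of 9 tables, and edgeR 4.0.16 and DESeq2 1.42.0 were run on these as alternatives, calling 5836 and 6104 genes for WT distal against proximal, 4372 and 5979 for WT after DSS, and 87 and 727 for Mtg16-/- after DSS. Groups came from the labels. CPM is a library's value divided by its total. Exact two-sided permutation tests were run over libraries for single genes. Alternatives were a pseudocount of 0.1, no filter, a block for replicate number, colony or library number as a covariate, each colony or library number 4149 alone, subtraction of a lowess trend on transcript length (span 0.3) fitted to every library, and leaving out each library.

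The 7 genes and the lists were chosen with earlier results of these data known. Named genes are the 7, from each list up to 4 called genes with the largest change in WT distal against proximal crypts and up to 3 in other comparisons, and the 3 genes most correlated with each of the 7. The main fits and the permutation tests did not pair libraries, and the block for replicate number was an alternative only. For Mtg16-/- against WT after DSS, the deviations of same-numbered libraries correlated at 0.554, 0.460 and 0.317. Correlations in the other comparisons ran from -0.766 to 0.369. Tests were checked on simulated data. Effects of genotype were compared between segments and alleles by the difference of 2 limma estimates, taken as independent. The labels do not say whether proximal and distal libraries came from the same mice. Tests between segments treated them as separate.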

Additional observations from a re-analysis of the deposited data

Results flagged for a closer look

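In groups of 4 to 10 libraries, 4 of 42 sets of a gene and a group had a highest value set far apart from the others by Dixon's test at 95%, a test that chance passes in about 1 of 20 sets. Gata4 was 94.7 normalized counts in WT proximal replicate 2 of the Mtg16 T/T colony and 30.3 to 38.3 in the other WT proximal libraries. Cdx2 was 20920 in the library labelled distal Mtg16-/- replicate 2 and 2282 to 2984 in the other distal Mtg16-/- libraries. Gata4 was 31.4 in the same library and 0.818 to 4.64 in the others. Evx2 was 133.4 in Mtg16-/- replicate 2 after DSS and 61.5 to 71.6 in the other Mtg16-/- libraries after DSS.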

How the results depend on the processing

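Of 434 values of the 7 genes under settings other than leaving out a library, 412 kept their direction and side of the threshold, and of 648 with a library left out, 575 did. For WT distal against proximal crypts, 6 genes were called, but 3 with library number as a covariate and 3 within number 4149. For WT after DSS, 2 were called, but 4 with the length trend removed, 1 with the replicate block, and 0 to 5 leaving out a library. For Mtg16-/- against WT after DSS, 1 was called, but 0 with edgeR and 0 leaving out any library. The causes were not tested. The block changed no other call on these genes. Groups of 2 libraries proximally, the low counts of Gata4 and the distal library that went against its label limit the genotype comparisons.

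Some log2 fold changes of uncalled genes reversed. With the length trend removed they were -0.0705 for Cdx1 (Mtg16-/- after DSS), 0.0338 for Gata6 (difference of alleles after DSS), 0.0016 for Gata6 (segment difference, Mtg16-/-) and 0.0045 for Hnf4g (distal Mtg16-/-), the last also at 0.014 with DESeq2 and 0.0080 with edgeR. With the block for replicate number they were -0.0046 for Cdx1 and 0.0363 for Hnf4g (Mtg16-/- after DSS) and -0.0683 for Cdx2 (distal Mtg16 T/T).

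Leaving out each library, reversals occurred within these ranges. For Cdx2 they were -0.28 to 0.79 (distal Mtg16-/-), -0.0352 to 0.35 (proximal Mtg16-/-), -0.14 to 0.26 (distal Mtg16 T/T), -0.0344 to 0.16 (proximal Mtg16 T/T), -0.63 to 0.44 and -0.20 to 0.20 (segment differences, Mtg16-/- and Mtg16 T/T), and -0.28 to 0.78 and -0.0794 to 0.68 (alleles compared, untreated and after DSS). For Evx2 the range was -2.39 to 0.0174 (distal Mtg16-/-). For Cdx1 they were -0.0903 to 0.19 (Mtg16-/- after DSS), -0.0273 to 0.22 (proximal Mtg16-/-) and -0.10 to 0.20 (tumors). For Gata6 they were -0.0555 to 0.0315 (distal Mtg16-/-), -0.16 to 0.13 (proximal Mtg16-/-), and -0.15 to 0.14 and -0.11 to 0.12 (segment differences, Mtg16-/- and Mtg16 T/T). For Hnf4a they were -0.13 to 0.0558 (distal Mtg16-/-), -0.017 to 0.0783 (distal Mtg16 T/T), -0.17 to 0.0204 (alleles compared distally) and -0.13 to 0.0183 (tumors). For Hnf4g they were -0.36 to 0.13 (Mtg16-/- after DSS), -0.12 to 0.0606 (distal Mtg16-/-), -0.44 to 0.20 (proximal Mtg16 T/T) and -0.027 to 0.61 (segment difference, Mtg16 T/T).

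Counts over all genes moved by over 1.5 times in some settings. Leaving out a library, they were 1 to 9086 for WT after DSS (4833 with all), 28 to 106 for Mtg16-/- after DSS (91), 2 to 143 for distal Mtg16-/- (33, with 143 without replicate 2), 0 to 8 for distal Mtg16 T/T (5), 6 to 22 for proximal Mtg16-/- (9), 0 to 27 for proximal Mtg16 T/T (32, with 0 without WT replicate 1), 0 to 3 for Mtg16 T/T after DSS (0) and 0 to 1 for tumors (0). For the difference tests they were 1 to 23 (segment difference, Mtg16 T/T, 3 with all), 3 to 10 (segment difference, Mtg16-/-, 5), 1 to 4 (alleles after DSS, 2) and 0 to 3 (alleles distally, 0). WT distal against proximal went from 5824 to 3540 in the Mtg16-/- colony alone, 3189 with the number as a covariate and 2014 within 4149, and WT after DSS from 4833 to 2679 with the block. Mtg16-/- after DSS went from 91 to 727 with DESeq2, 157 with the length trend removed and 1271 with the block. Mtg16 T/T after DSS, with 0 genes by limma and 0 by edgeR at 1197 genes with an unadjusted p under 0.05, gave 334 with DESeq2 and 9 with the length trend removed, and tumors, with 0 by limma and 0 by edgeR at 392, gave 24 with DESeq2 and 1 with no filter. Distal Mtg16-/- went from 33 to 200 with DESeq2, 1 with the block and 8 with the number as a covariate, and distal Mtg16 T/T from 5 to 53 and, with the block, 0. Proximal Mtg16-/- went from 9 to 32 with the block, and proximal Mtg16 T/T from 32 to 151 with the block and 2 with no filter. The difference of alleles after DSS went from 2 to 1 with the length trend removed and 4 with the block, that of alleles distally from 0 to 1 with the block, the segment difference of Mtg16 T/T from 3 to 24 with the block, and that of Mtg16-/- from 5 to 11 with the block and to 3 with no filter or a pseudocount of 0.1.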
